A study of Saccharomyces cerevisiae with 18 samples.

Results

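Saccharomyces cerevisiae LP118 was compared at 24 h with itself at 6 h of flask culture, across all genes. The members were the 6 LP118 libraries, 3 at 24 h and 3 at 6 h, chosen by their labels from the 18 libraries of the series. LP118 is 1 of 3 diosgenin-producing strains of the study, beside LP085-Vc and LP104-17, and diosgenin is a plant steroid whose synthesis in yeast draws on the sterol route. All 3 strains have the background BY4742, a laboratory strain of mating type alpha with deletions at HIS3, LEU2, LYS2 and URA3. The labels give no genotype, so the genes introduced into or removed from LP118 are not known from them. Every culture had SD medium with 2% w/v glucose at 30 °C and 250 rpm, in 15 mL and from a starting OD600 of 0.1, and both times carried the same strain. Culture time and any other difference in the handling of the 24 h and 6 h libraries cannot be told apart. The 3 libraries of a time are not labelled as separate cultures. The p-values measure only the spread between libraries of the same strain and time, pooled over the 18 libraries of the series. That spread may therefore be technical.

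Budding yeast on glucose ferments it to ethanol and grows fast, with high expression of glycolytic and ribosomal protein genes. When glucose runs out, the diauxic shift follows: cells induce high-affinity hexose transporters, respiration, gluconeogenesis, the glyoxylate cycle and stress genes, and lower the genes of ribosome synthesis. Starvation for a single nutrient such as iron, sulfur or nitrogen induces its own regulon on top of this.

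Total counts were 6.24 ± 0.32 in the 24 h libraries and 5.21 ± 0.11 in the 6 h libraries (SD, n = 3 each), in units of 1e6 reads, within the 5.12 to 7.55 of all 18. The first principal component of the 6 LP118 libraries held 81.8% of their variance and separated the times. Replicate 1 at 24 h stood furthest from its group, with a chi-square per degree of freedom of 18.3 and 14.4 against replicates 2 and 3, which differed from each other by 3.12. Replicate 1 also stood apart at 6 h, with 9.10 and 10.4 against replicates 2 and 3, which differed by 3.96. Levels of 1 gene are given as CPM (counts per 1e6 of TMM-scaled libraries), and levels of different genes are compared only as the authors' FPKM, which is per length. HYP2, which encodes the essential translation factor eIF5A, was listed at 0 counts in all 6 libraries, and a 0 elsewhere is likewise given as a count only.

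At 24 h, 3502 of 6131 tested genes differed from 6 h in edgeR's quasi-likelihood test at a Benjamini-Hochberg adjusted p below 0.05, which is 57.1% of the tested genes. Of these, 1630 were higher (26.6%) and 1872 were lower (30.5%), and 2629 were not called. The changes upward were the larger ones. At least 4-fold differences numbered 168 among the higher genes and 18 among the lower ones, and at least 8-fold differences numbered 64 and 1. That 1 lower gene, YOL013W-A, has no symbol in the annotation and had 0 counts in each 24 h library, against 2, 14 and 10 counts at 6 h. The median log2 fold change of all tested genes was -0.05 and the median absolute value 0.41. The split of calls depended on scaling, since upper-quartile scaling gave 1928 higher and 1531 lower, and limma on log2(FPKM + 1) gave 2182 higher and 1212 lower, or 64.3% higher among the called genes against 46.5%. The counts of each gene list below stand against the 26.6% higher and 30.5% lower of all tested genes. RNA from bulk cultures does not tell fewer cells of a state from less RNA per cell.

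FIT3 (R64 chromosome XV, 1060441 to 1061055), which encodes a cell wall mannoprotein that helps retain siderophore-bound iron, rose the most among called genes that have a symbol, reach 10 CPM at one time and whose 24 h and 6 h libraries do not overlap. It had 5067, 4724 and 4893 CPM in the 24 h libraries, against 65.3, 57.0 and 74.6 CPM at 6 h. The groups lay far apart, with a log2 fold change of 6.22 ± 0.17 (SE) and an edgeR adjusted p of 6.37e-16. PDC6 (chromosome VII, 651290 to 652981), a minor pyruvate decarboxylase isoform, had 178, 182 and 210 CPM at 24 h, against 2.99, 3.11 and 2.30 CPM at 6 h. It thus went with FIT3 as one of 2 genes past 6 on the log2 scale (6.08 ± 0.16). HSP26 (chromosome II, 382030 to 382674), the small heat shock protein, had 3218, 2816 and 2843 CPM at 24 h, against 62.3, 61.0 and 66.4 CPM at 6 h. Its log2 fold change was 5.55 ± 0.11.

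The other 9 of the 12 largest rises had log2 fold changes of 4.06 to 5.36. They were YRO2, the glyceraldehyde-3-phosphate dehydrogenase gene TDH1, the hexose transporter gene HXT4, the polyamine exporter gene TPO2, the hydrophilin gene SIP18, the heme oxygenase gene HMX1, NCA3, the inositol-3-phosphate synthase gene INO1 and the cell wall gene PIR3. Of the 50-base windows of TPO2 41.3% are repeated in the genome, and of those of TDH1 15.7%, so their counts are uncertain to that extent. Among genes that met the same conditions, the largest falls were smaller. INA1 averaged 27.6 ± 3.34 CPM at 24 h and 220 ± 12.3 CPM at 6 h (SD, n = 3), a log2 fold change of -2.99 ± 0.13. LEU1 (chromosome VII, 476313 to 478652), the isopropylmalate isomerase of leucine synthesis, had 345, 381 and 371 CPM at 24 h, against 2978, 2915 and 2587 CPM at 6 h. The log2 fold change of LEU1 was -2.95 ± 0.10. The other 10 of the 12 largest falls ran from -2.42 to -1.83. They were the IMP dehydrogenase gene IMD2, of which 33.7% of windows are repeated, the aromatic aminotransferase gene ARO9, the cell wall transglycosylase gene UTR2, the enolase gene ENO2, the yapsin protease gene MKC7, the carbonic anhydrase gene NCE103, the mannoprotein gene DAN1, the isopropylmalate synthase gene LEU9, the phospholipase gene PLB2 and the histone gene HTB2.

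**Figure D1:**
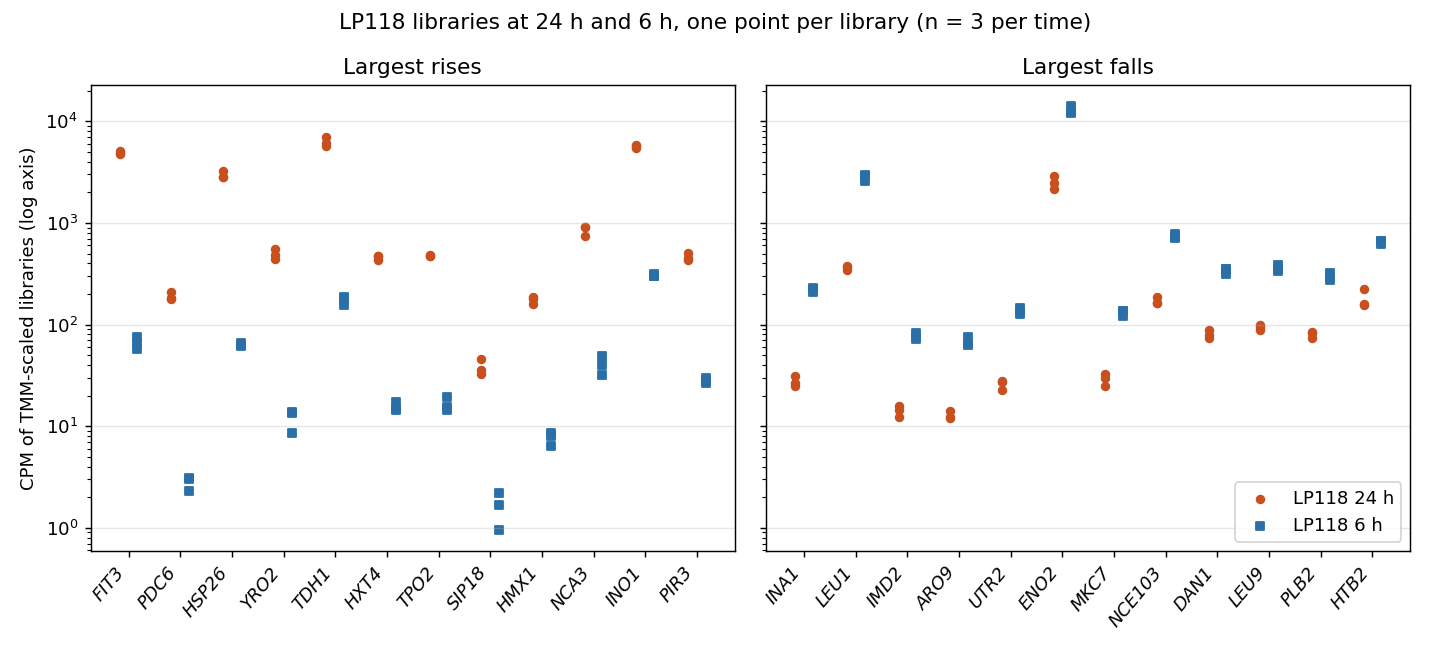
Expression of the 12 genes with the largest rise (left) and the 12 with the largest fall (right) in LP118, as CPM of TMM-scaled libraries on a log axis. Each point is 1 library, circles at 24 h and squares at 6 h; genes whose libraries overlap between the times were left out by the choice of genes. FIT3 lies at 4724 to 5067 CPM at 24 h and 57.0 to 74.6 CPM at 6 h.

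The upstream windows of 6 genes are shown because their lists moved together and hold short motifs that a search of the same windows found often. Each pair holds the called members of a list with the largest absolute change among those whose window has the motif. That the genes shown changed and have the motif was therefore fixed by this choice. Each window is 250 bases and ends 100 bases before the start codon, in the RefSeq genome of build R64, written 5′ to 3′ on the gene's strand. Capitals mark matches on either strand. The first pair, HSP26 (chrII:381680-381929, + strand) and DDR2 (chrXV:231856-232105, - strand), rose and have the stress response element (STRE, AGGGG or CCCCT).
HSP26: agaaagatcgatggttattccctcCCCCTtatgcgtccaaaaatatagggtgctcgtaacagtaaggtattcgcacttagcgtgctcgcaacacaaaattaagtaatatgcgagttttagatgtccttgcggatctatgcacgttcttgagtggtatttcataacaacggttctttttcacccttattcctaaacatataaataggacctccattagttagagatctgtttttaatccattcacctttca
DDR2: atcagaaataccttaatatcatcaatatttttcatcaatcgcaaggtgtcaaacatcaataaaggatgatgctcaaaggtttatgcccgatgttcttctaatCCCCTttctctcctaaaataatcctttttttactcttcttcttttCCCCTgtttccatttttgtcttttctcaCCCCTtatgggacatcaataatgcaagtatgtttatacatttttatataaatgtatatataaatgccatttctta
The next pair, NOP7 (chrVII:695067-695316, + strand) and NOP58 (chrXV:898461-898710, - strand), are ribosome biogenesis genes that fell and have the PAC motif (GATGAG or CTCATC). The 3 matches in NOP7 overlap each other.
NOP7: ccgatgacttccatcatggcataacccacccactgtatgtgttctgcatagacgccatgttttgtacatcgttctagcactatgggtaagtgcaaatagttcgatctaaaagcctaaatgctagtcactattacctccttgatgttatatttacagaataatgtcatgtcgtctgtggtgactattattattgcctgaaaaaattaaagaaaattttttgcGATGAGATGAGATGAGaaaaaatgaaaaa
NOP58: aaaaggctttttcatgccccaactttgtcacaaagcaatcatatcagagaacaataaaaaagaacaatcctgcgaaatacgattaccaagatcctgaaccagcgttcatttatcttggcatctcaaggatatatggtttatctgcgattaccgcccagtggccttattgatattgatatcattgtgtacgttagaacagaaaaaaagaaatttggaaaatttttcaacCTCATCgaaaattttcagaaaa
The last pair, FIT3 (chrXV:1061156-1061405, - strand) and FIT2 (chrXV:1059181-1059430, + strand), belong to the iron regulon and have the site known for the iron regulators Aft1 and Aft2 (TGCACCC or GGGTGCA), a motif added after the values of these genes were seen.
FIT3: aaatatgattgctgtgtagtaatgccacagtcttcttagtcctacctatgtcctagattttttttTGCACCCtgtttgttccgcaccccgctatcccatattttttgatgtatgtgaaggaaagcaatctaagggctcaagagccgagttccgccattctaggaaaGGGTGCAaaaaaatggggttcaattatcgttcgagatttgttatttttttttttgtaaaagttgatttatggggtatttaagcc
FIT2: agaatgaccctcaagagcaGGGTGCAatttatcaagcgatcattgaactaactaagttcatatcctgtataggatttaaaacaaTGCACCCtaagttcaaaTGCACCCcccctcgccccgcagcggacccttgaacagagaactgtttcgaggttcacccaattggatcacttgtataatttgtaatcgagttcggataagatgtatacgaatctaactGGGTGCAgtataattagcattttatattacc
The STRE was found in 25 of 30 windows of the environmental stress response list (83.3%), against 1164 of 5698 windows of all tested genes (20.4%). The PAC motif was found in 51 of 74 windows of ribosome biogenesis genes (68.9%), against 15.4% of all windows. The Aft site was found in 14 of 24 windows of the iron regulon (58.3%), against 74 of 5698 windows (1.30%). The A-rich RRPE motif (AAAATTT or AAATTTT) was found in 83.8% of ribosome biogenesis windows, 32.3% of the windows of all lower genes and 16.1% of those of all higher genes. Windows of all higher and all lower genes held the STRE in 28.6% and 16.6%, and the PAC motif in 13.4% and 19.7%. For the Aft site these shares were 2.43% and 0.608%. The lists gather genes known to be regulated together, so a motif frequent in them is not independent support. Such matches are a description of the sequence and not a measure of binding.

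Most called genes of hexose transport were higher. Of 15 transporter and glucose-sensing genes, 9 were higher, 1 was lower and 5 were not called, and their median log2 fold change was 0.83. HXT4 had 471, 470 and 434 CPM at 24 h, against 17.2, 14.5 and 14.9 CPM at 6 h, with a log2 fold change of 4.88 ± 0.12. HXT3, a low-affinity transporter gene, averaged 6864 ± 164 CPM at 24 h and 1946 ± 98 CPM at 6 h (SD, n = 3), a log2 fold change of 1.82 ± 0.08. HXT5, a transporter gene known from slow growth, rose by 3.32 ± 0.11, and MTH1, a repressor of hexose transporter genes in the glucose-sensing pathway, rose by 3.10 ± 0.10 on the same scale. HXT6 rose by 3.32 ± 0.23, but 95.1% of its windows are repeated in the genome, so reads of HXT6 and HXT7 could not be told apart. The lower gene was HXT2, a high-affinity transporter gene, with 90.2 ± 8.94 CPM at 24 h and 272 ± 40.6 CPM at 6 h (log2 fold change -1.59 ± 0.14). HXT1, the main low-affinity transporter gene, was not called (-0.11 ± 0.11).

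Glycolysis fell as a list, with a change of isoforms inside it. Of 17 genes, 12 were lower and 5 were higher, and the median log2 fold change was -0.59. The list took 3.99% ± 0.249 of all FPKM at 24 h and 5.52% ± 0.243 at 6 h (SD, n = 3). The fall was largest in ENO2, which had 2881, 2177 and 2493 CPM at 24 h, against 12298, 14123 and 12191 CPM at 6 h. The other enolase gene, ENO1, averaged 5752 ± 809 CPM at 24 h and 1271 ± 122 CPM at 6 h, with a log2 fold change of 2.18 ± 0.12, against -2.35 ± 0.12 for ENO2. The ratio of ENO1 to ENO2 by FPKM was therefore 2.29 ± 0.0511 at 24 h and 0.0988 ± 0.00582 at 6 h. TDH1 to TDH3, both glyceraldehyde-3-phosphate dehydrogenase genes, stood at 0.811 ± 0.0246 at 24 h and 0.0101 ± 0.000747 at 6 h. HXK1 to HXK2, both hexokinase genes, stood at 0.281 ± 0.0278 at 24 h and 0.0541 ± 0.00655 at 6 h. In ENO1 and ENO2 23.6% of windows are repeated in the genome, and in TDH3 24.4%, so the split of reads between such copies is uncertain.

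Past pyruvate, 10 of 20 genes of pyruvate, ethanol and acetate metabolism were higher, 7 were lower and 3 were not called, with a median of 0.19. Only 4 were lower in a limma fit of log2(FPKM + 1). ADH1, the main fermentative alcohol dehydrogenase, averaged 1728 ± 130 CPM at 24 h and 4208 ± 606 CPM at 6 h, a log2 fold change of -1.28 ± 0.11. ADH2, the isoform known for ethanol use, had 60.9, 64.2 and 55.0 CPM at 24 h, against 35.9, 48.1 and 43.8 CPM at 6 h. The log2 fold change of ADH2 was 0.50 ± 0.11, and the FPKM ratio of ADH2 to ADH1 was 0.0349 at 24 h and 0.0101 at 6 h. PDC5, a pyruvate decarboxylase gene, and ALD4, the mitochondrial aldehyde dehydrogenase gene, rose by 1.34 ± 0.23 and 1.61 ± 0.08.

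**Figure D2:**
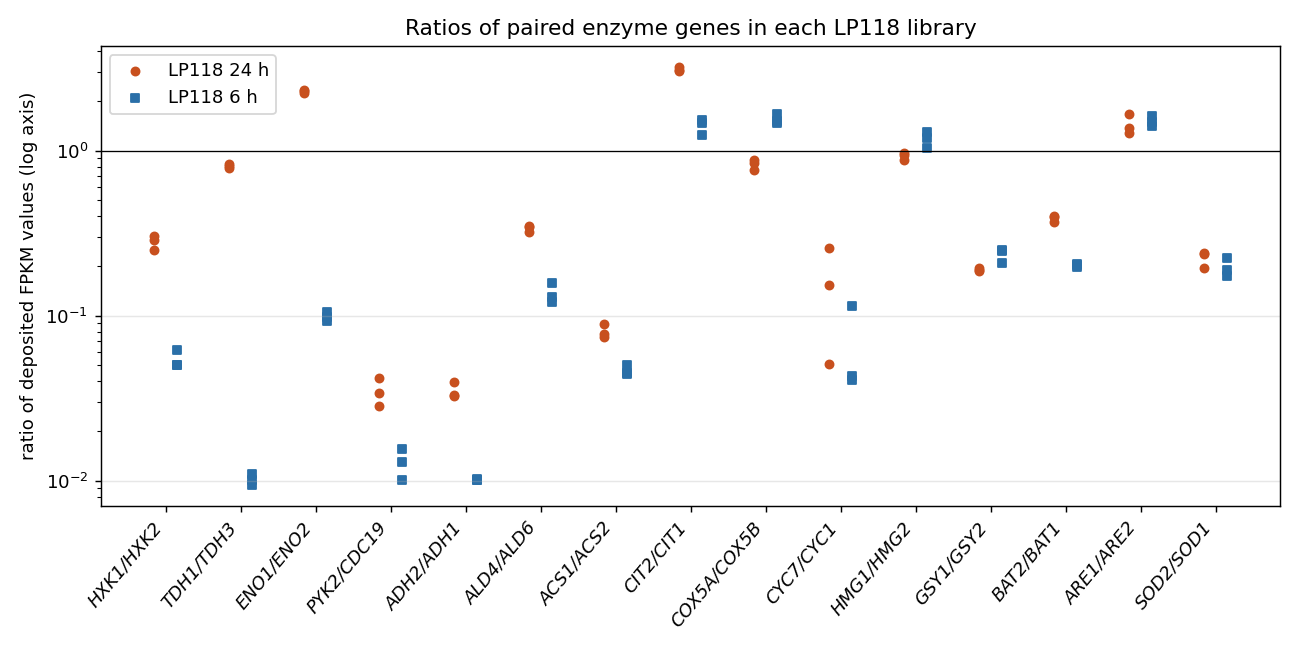
FPKM ratios of 15 pairs of genes for the same step in each LP118 library, on a log axis; circles are 24 h and squares 6 h. ENO1/ENO2 averages 2.29 at 24 h and 0.0988 at 6 h, and the ratio of COX5A/COX5B lies below 1 at 24 h and above 1 at 6 h.

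Most genes for growth on ethanol and acetate were higher. Of 19 genes of the glyoxylate cycle and gluconeogenesis, 15 were higher, 3 were lower and 1 was not called, and the median log2 fold change was 1.19. The lower genes were MAE1, the malic enzyme gene (-1.16), the malate dehydrogenase gene MDH2 (-0.64) and the pyruvate carboxylase gene PYC2 (-0.47). CIT2, the peroxisomal citrate synthase, had 1238, 1167 and 1181 CPM at 24 h, against 259, 257 and 271 CPM at 6 h. The libraries of the 2 times lay far apart. MLS1, the malate synthase of the glyoxylate cycle, had 34.3, 35.8 and 48.0 CPM at 24 h, against 5.39, 6.22 and 7.46 CPM at 6 h. PCK1, phosphoenolpyruvate carboxykinase, averaged 53.5 ± 2.70 CPM at 24 h and 12.9 ± 1.90 CPM at 6 h, a log2 fold change of 2.05 ± 0.12. The succinate-fumarate carrier gene SFC1 rose by 3.31 ± 0.27 and the lactate and pyruvate permease gene JEN1 by 2.05 ± 0.12 on the log2 scale.

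Respiratory genes rose by less. Of 36 oxidative phosphorylation genes, 24 were higher, 0 were lower and 12 were not called, with a median of 0.47 and 1 lower without replicate 1 at 24 h or replicate 3 at 6 h. COX5B, a cytochrome oxidase subunit gene known to be made at low oxygen, had 244, 215 and 206 CPM at 24 h, against 101, 84.4 and 89.6 CPM at 6 h. Its partner COX5A rose by 0.36 ± 0.13, a call lost without replicate 1 or 3 at 24 h or replicate 2 or 3 at 6 h (edgeR adjusted p = 0.056, 0.051, 0.060 and 0.076). The FPKM ratio of COX5A to COX5B was 0.829 ± 0.0613 at 24 h and 1.56 ± 0.104 at 6 h. In the tricarboxylic acid cycle 10 of 17 genes were higher and 3 were lower, with a median of 0.30. The aconitase gene ACO1 fell by 0.96 on the log2 scale, with 274 ± 10.5 CPM at 24 h and 535 ± 40.5 CPM at 6 h. Of 19 genes of peroxisomal beta-oxidation and carnitine transport, 14 were higher and 0 were lower, including the reductase gene SPS19 (1.96 ± 0.15) and the carnitine acetyltransferase gene YAT2 (1.21 ± 0.11). CCAAT, the box bound by the Hap complex, or its reverse ATTGG was found in 86.1% of the 36 oxidative phosphorylation windows, against 38.0% of all. Windows of all higher genes held it in 39.3% and those of all lower genes in 36.2%, both near that share.

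Stress and stationary phase genes were among those that rose most. Of 30 environmental stress response genes, 25 were higher, 1 was lower and 4 were not called, with a median of 0.99. DDR2 had 390, 427 and 412 CPM at 24 h, against 54.1, 50.8 and 46.5 CPM at 6 h, and YGP1, a secreted glycoprotein gene, rose by 2.42 ± 0.09. Of 20 stationary phase and hydrophilin genes, 18 were higher and 0 were lower, with a median of 1.58. GRE1, a hydrophilin gene, averaged 127 ± 14.3 CPM at 24 h and 9.65 ± 4.75 CPM at 6 h, a log2 fold change of 3.71 ± 0.19. In trehalose and glycogen metabolism 11 of 19 genes were higher, 1 was lower and 7 were not called. Glycogen phosphorylase, GPH1, led that list at 2.53 ± 0.11, and phosphoglucomutase, PGM2, rose by 1.56 ± 0.08. Antioxidant genes were 13 higher, 5 lower and 3 not called of 21, with GPX1, a glutathione peroxidase gene, at 2.26 ± 0.28 and the thiol peroxidase genes PRX1 and TSA2 at 1.49 ± 0.13 and 1.34 ± 0.11.

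Chaperone and proteasome genes were mostly lower, and autophagy genes mostly higher. Of 20 heat shock chaperone genes, 5 were higher, 11 were lower and 4 were not called, with a median of -0.41. SSA4, a stress-induced Hsp70 gene, averaged 756 ± 12.5 CPM at 24 h and 153 ± 9.02 CPM at 6 h (log2 fold change 2.30 ± 0.08). HSC82, the constitutive Hsp90 gene, averaged 1441 ± 105 CPM at 24 h and 3759 ± 256 CPM at 6 h (log2 fold change -1.38 ± 0.08). Of 33 proteasome genes, 0 were higher, 29 were lower and 4 were not called, and the fall was shallow, with a median of -0.47 and a largest fall of 0.77 in RPT6, an ATPase subunit of its regulatory particle. Autophagy and vacuolar protease genes were 19 higher, 1 lower and 6 not called of 26. ATG8, the ubiquitin-like protein of the autophagosome membrane, had 101, 81.3 and 83.1 CPM at 24 h, against 28.9, 18.2 and 27.4 CPM at 6 h. The vacuolar protease B gene PRB1 averaged 4772 ± 461 CPM at 24 h and 1977 ± 105 CPM at 6 h. Unfolded protein response genes were 4 higher, 7 lower and 5 not called of 16. The ER chaperone gene KAR2 fell by 0.66 on the log2 scale.

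Genes of protein synthesis fell together. Of 137 cytosolic ribosomal protein genes, 118 were lower, 2 were higher and 17 were not called, with a median of -0.69. Their share of all FPKM was 16.1%, 14.0% and 13.8% at 24 h, against 19.1%, 22.3% and 22.5% at 6 h. Replicate 1 was nearest the other time in both groups, and the groups did not overlap. The higher count was 1 without replicate 1 or 3 at 24 h or any replicate at 6 h. Of the 2 higher genes, RPL7B reached 24.5 ± 3.22 CPM at 24 h, against 8.96 ± 3.33 CPM at 6 h. The steepest fall in the list was that of RPL18B, to 80.9 ± 2.60 CPM at 24 h, against 214 ± 17.1 CPM at 6 h. Many ribosomal protein genes have a near-identical copy, and values of single copies are uncertain.

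Of 74 ribosome biogenesis genes, 67 were lower, 0 were higher and 7 were not called, with a median of -0.58. NOP7, a factor of large subunit assembly, had 241, 182 and 197 CPM at 24 h, against 471, 471 and 396 CPM at 6 h. NOP58 and NOP56, core proteins of box C/D snoRNPs, fell by 1.03 and 1.02 on the log2 scale. RNA polymerase I genes were 13 lower, 0 higher and 3 not called of 16, and translation factors were 27 lower, 0 higher and 8 not called of 35. The elongation factor gene TEF4 had 450, 366 and 413 CPM at 24 h, against 1182, 1193 and 1084 CPM at 6 h, a log2 fold change of -1.49 ± 0.10.

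Cell division genes were lower in part. Of 23 cyclin and S phase genes, 13 were lower, 2 were higher and 8 were not called, with 1 higher without replicate 1 at 24 h. The G1 cyclin gene CLN2 averaged 91.2 ± 8.29 CPM at 24 h and 196 ± 5.80 CPM at 6 h, and the mitotic cyclin gene CLB2 averaged 60.9 ± 3.53 CPM at 24 h and 124 ± 4.25 CPM at 6 h. Of 10 histone genes, 7 were lower and 3 were not called, with a median of -0.84. HTB2, for histone H2B, had 226, 157 and 160 CPM at 24 h, against 658, 663 and 615 CPM at 6 h.

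**Figure D3:**
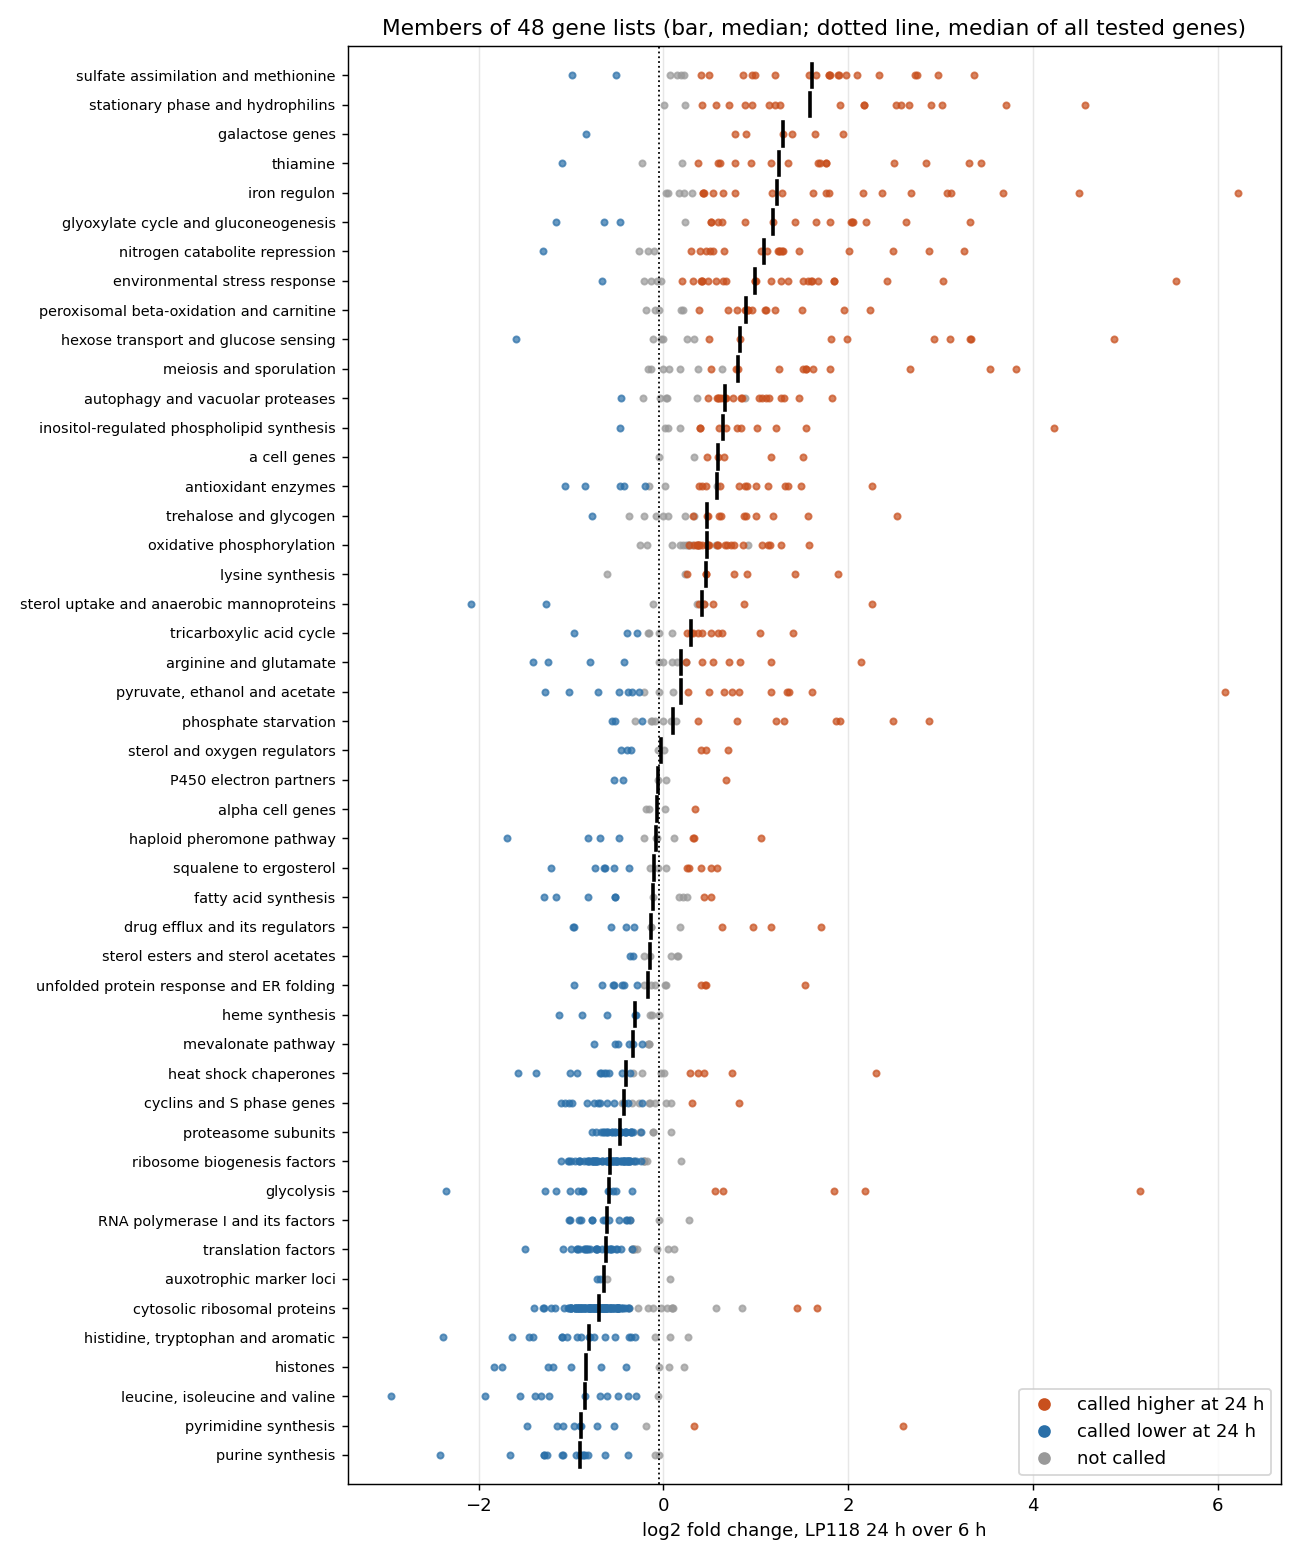
Log2 fold changes of LP118 at 24 h over 6 h for the tested members of 48 gene lists, 1 point per gene, coloured by call; the bar is the list's median and the dotted line the median of all tested genes. The lists run from sulfate assimilation and methionine (median 1.61) at the top to purine synthesis (median -0.90) at the bottom.

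Amino acid and nucleotide synthesis split by pathway. Sulfate assimilation and methionine synthesis had a median of 1.61, the highest of the 48 lists and next to the 1.58 of the stationary phase list, with 20 of 26 genes higher, 2 lower and 4 not called. Without replicate 1 at 6 h the stationary phase list was above it, at 1.62 against 1.56. SUL2, a sulfate permease gene, had 274, 355 and 394 CPM at 24 h, against 42.9, 46.0 and 41.3 CPM at 6 h. MET17, O-acetylhomoserine sulfhydrylase, had 1353, 970 and 1089 CPM at 24 h, against 165, 180 and 163 CPM at 6 h. MET28, a transcription factor gene of this pathway, rose by 3.36 ± 0.30, and STR3, a cystathionine lyase gene, by 2.72 ± 0.17. Of 9 lysine genes, 7 were higher and 0 were lower. LYS20, a homocitrate synthase gene of which 37.8% of windows are shared, averaged 914 ± 38.8 CPM at 24 h and 246 ± 1.32 CPM at 6 h.

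Branched-chain and aromatic amino acid genes fell. Leucine, isoleucine and valine genes were 12 lower, 0 higher and 1 not called of 13, with a median of -0.85, and histidine, tryptophan and aromatic genes were 17 lower, 0 higher and 3 not called of 20, with a median of -0.80. BAT1, the mitochondrial branched-chain aminotransferase, averaged 670 ± 70.7 CPM at 24 h and 1679 ± 112 CPM at 6 h. The mitochondrial carrier gene OAC1 and the dihydroxyacid dehydratase gene ILV3 fell by 1.55 and 1.38 on the log2 scale. HIS4, a multifunctional enzyme of histidine synthesis, had 442, 453 and 473 CPM at 24 h, against 1455, 1425 and 1377 CPM at 6 h. The Gcn4 site TGACTC or GAGTCA was found in 10 of the 20 windows of the histidine, tryptophan and aromatic list, against 7.32% of all. Windows of all higher genes held it in 8.38% and those of all lower genes in 7.68%. Arginine and glutamate genes were mixed, with 7 higher (11 by limma on log2(FPKM + 1)), 4 lower and 5 not called of 16. GDH3, a glutamate dehydrogenase gene, rose by 2.14 ± 0.14.

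Purine genes were 16 lower, 0 higher and 2 not called of 18, with a median of -0.90, the lowest of the 48 lists and next to the -0.89 of the pyrimidine list. Histones were lower without replicate 1 at 24 h (-0.99 against -0.94) and with the coding-length trend removed (-0.94 against -0.90), and pyrimidine genes without replicate 1 at 6 h (-0.93 against -0.92). ADE17, of the last steps to IMP, averaged 153 ± 12.2 CPM at 24 h and 485 ± 26.4 CPM at 6 h. Pyrimidine genes were 8 lower, 2 higher and 1 not called of 11. URA10, the minor orotate phosphoribosyltransferase gene, averaged 112 ± 9.24 CPM at 24 h and 18.4 ± 3.06 CPM at 6 h, a log2 fold change of 2.60 ± 0.20 against the direction of the list.

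Several nutrient regulons rose at once. Of 24 iron regulon genes, 19 were higher, 0 were lower and 5 were not called, with a median of 1.23, and their share of all FPKM was 1.67% ± 0.0668 at 24 h and 0.228% ± 0.0103 at 6 h. FIT2, a neighbour of FIT3 with the same kind of product, had 1690, 1468 and 1588 CPM at 24 h, against 119, 126 and 127 CPM at 6 h. TIS11, which lowers mRNAs of iron-using proteins, had 781, 653 and 668 CPM at 24 h, against 91.2, 78.8 and 72.7 CPM at 6 h. HMX1 averaged 174 ± 14.5 CPM at 24 h and 7.66 ± 1.19 CPM at 6 h. FET3, the multicopper ferroxidase of high-affinity uptake, was among the 5 members not called (0.03), a gene singled out after its value was seen.

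Genes under nitrogen catabolite repression were 18 higher, 1 lower and 3 not called of 22, with a median of 1.09. PUT4, the proline permease gene, had 48.9, 57.2 and 58.2 CPM at 24 h, against 6.58, 7.05 and 8.61 CPM at 6 h, and PUT1, proline oxidase, rose by 2.49 ± 0.10. CAR1, arginase, was the lower one (-1.31). Thiamine genes were 15 higher, 1 lower and 2 not called of 18, and THI4, of thiazole synthesis, averaged 250 ± 7.82 CPM at 24 h and 25.3 ± 1.23 CPM at 6 h. Several thiamine genes are near copies of each other, such as SNZ2 and SNZ3, and are uncertain one by one. Phosphate starvation genes were 8 higher, 3 lower and 7 not called of 18. The phosphate transporter gene PHO84 averaged 180 ± 18.8 CPM at 24 h and 48.0 ± 0.766 CPM at 6 h.

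**Figure D4:**
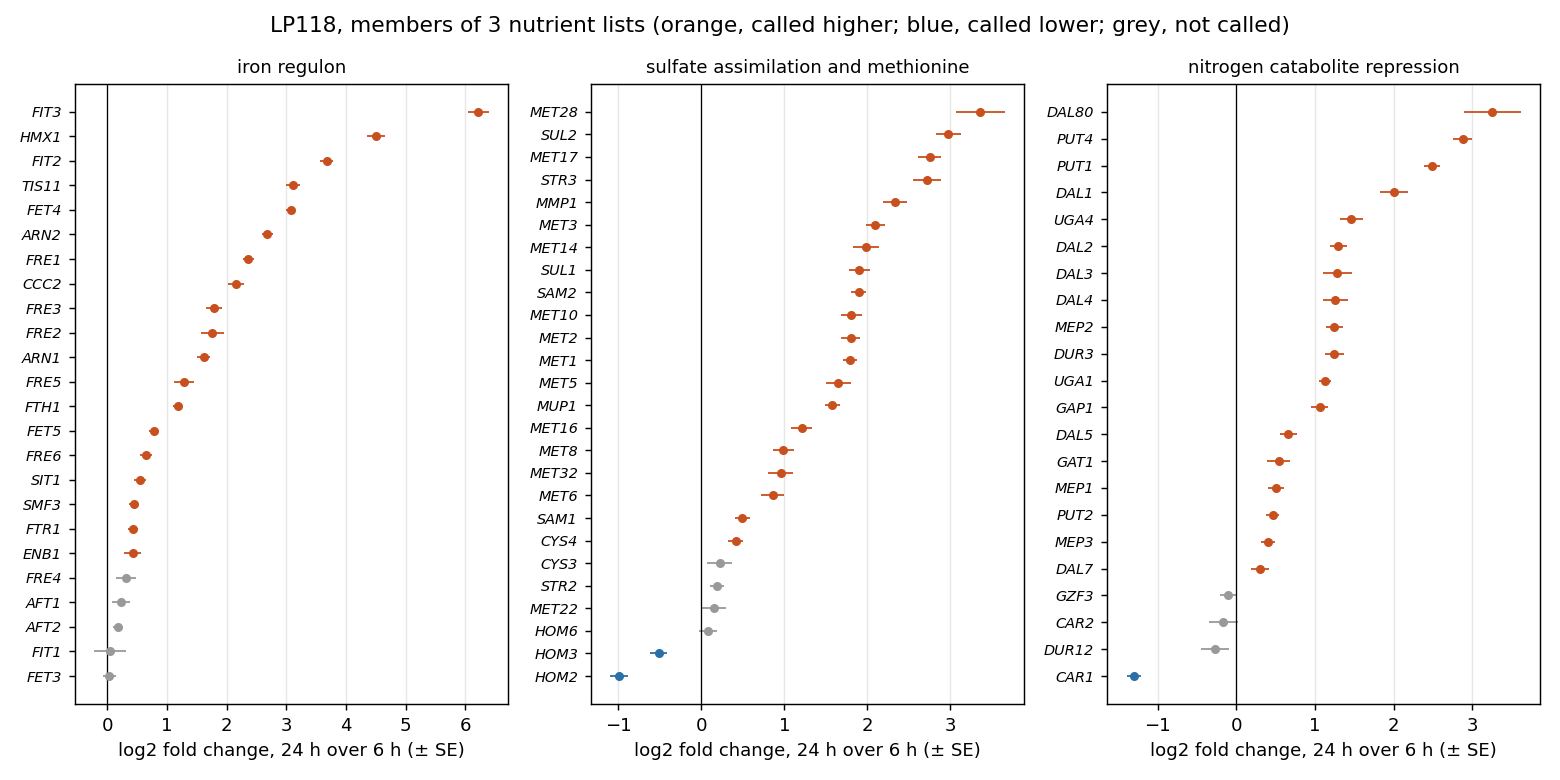
Log2 fold changes of LP118 at 24 h over 6 h, with SE, for the tested members of the iron regulon, of sulfate assimilation and methionine synthesis, and of genes under nitrogen catabolite repression. No iron regulon gene was called lower, and the values run from 0.03 for FET3 to 6.22 for FIT3.

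The mevalonate and sterol routes supply the precursor of diosgenin, and their genes other than ERG1 moved by less than 1 on the log2 scale. Of 9 mevalonate genes, 6 were lower, 0 were higher and 3 were not called, with a median of -0.33. A limma fit of log2(FPKM + 1) called 3 lower. ERG13, HMG-CoA synthase, averaged 392 ± 33.5 CPM at 24 h and 662 ± 61.4 CPM at 6 h, a log2 fold change of -0.75 ± 0.10. ERG12, mevalonate kinase, fell by 0.53 on the log2 scale and ERG8, phosphomevalonate kinase, by 0.33. HMG1, HMG-CoA reductase, had -0.49 ± 0.14 and MVD1, mevalonate pyrophosphate decarboxylase, -0.37 ± 0.09. ERG20, farnesyl pyrophosphate synthase, was at -0.24 ± 0.10, a call lost under 9 of the 15 alternatives, and had an adjusted p of 0.28 with upper-quartile scaling in edgeR. The calls of HMG1 and ERG8 were lost with limma on log2(FPKM + 1), at adjusted p of 0.082 and 0.063, and that of MVD1 was lost without replicate 2 at 24 h, at an edgeR adjusted p of 0.057. HMG2, IDI1 and ERG10 were not called, with values of -0.15, -0.15 and -0.16.

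Of the 14 genes from squalene to ergosterol, 5 were higher, 6 were lower and 3 were not called. ERG1 (chromosome VII, 846933 to 848423), squalene epoxidase, had 4512, 3450 and 3830 CPM at 24 h, against 9285, 9366 and 8776 CPM at 6 h. It was 1 of the 10 genes of highest FPKM at 6 h, with 5707 ± 170 FPKM, and had 2778 ± 294 FPKM at 24 h. The log2 fold change of ERG1 was -1.22 ± 0.09, the largest of the pathway, with an edgeR adjusted p of 1.92e-09. ERG7 (lanosterol synthase), ERG4 (the last reductase of the route) and ERG2 (sterol isomerase) fell by 0.74, 0.64 and 0.63, and ERG9 (squalene synthase) and ERG6 (the methyltransferase) by 0.53 and 0.37. ERG24, the C-14 reductase, had 0.27 ± 0.09, a call lost without replicate 1 at 24 h (adjusted p = 0.12, edgeR) or replicate 1 at 6 h. ERG11, the lanosterol demethylase, had 2966, 2779 and 3013 CPM at 24 h, against 2186, 2329 and 2069 CPM at 6 h, which put all 24 h libraries above all 6 h libraries (log2 fold change 0.41 ± 0.08). ERG25, ERG5 and ERG3, the C-4 methyl oxidase, the C-22 desaturase and the C-5 desaturase, rose by 0.51 ± 0.09, 0.58 ± 0.07 and 0.26 ± 0.07. ERG26, ERG27 and ERG28 were not called, with values of -0.15, 0.03 and -0.06. As a sum, the list took 1.62% ± 0.0419 of all FPKM at 24 h and 1.66% ± 0.107 at 6 h. The sterol response element TCGTATA or TATACGA was found in 3 of the 14 windows, against 3.88% of all.

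Genes around the sterol route were mixed too. UPC2, the sterol-sensing transcription factor, averaged 243 ± 16.6 CPM at 24 h and 149 ± 15.6 CPM at 6 h (log2 fold change 0.70 ± 0.10), while its paralog ECM22 had -0.06 and was not called. HAP1, the heme-dependent activator, rose by 0.47 ± 0.14. The regulator list held 3 higher, 3 lower and 2 not called of 8, near the 26.6% and 30.5% of all tested genes, with 0 lower by limma on log2(FPKM + 1) and 1 lower without replicate 1 at 24 h. Among 7 tested genes of sterol esters and acetates, 2 were lower and 5 were not called, including both sterol acyltransferase genes, ARE1 (0.08) and ARE2 (0.14). These calls turned with the scaling, with 1 lower and 1 higher under upper-quartile scaling and 0 lower and 2 higher by limma on either FPKM scale, and 1 was lower without replicate 2 of either time. ATF2, a sterol and alcohol acetyltransferase gene, had 0 counts in all 6 libraries and in the other 12. NCP1, the P450 reductase, had 858 ± 107 CPM at 24 h and 894 ± 38.1 CPM at 6 h and was not called (-0.06 ± 0.13). Of the 5 genes of P450 electron transfer, the reductase gene MCR1 rose by 0.68 ± 0.10 and CBR1 fell by 0.53. The fall of the cytochrome b5 gene CYB5 (-0.44 ± 0.14) was not called without replicate 2 at 24 h (adjusted p = 0.12, edgeR). It was also not called with upper-quartile scaling or by limma on either FPKM scale. Of 8 heme synthesis genes, 5 were lower and 3 were not called, with 3 lower without replicate 2 at 24 h or replicate 2 at 6 h. HEM15, ferrochelatase, averaged 52.1 ± 4.24 CPM at 24 h and 114 ± 18.1 CPM at 6 h, and HEM3 and HEM13 fell by 0.88 and 0.61. The calls of HEM2 and HEM4 were lost with upper-quartile scaling, at edgeR adjusted p of 0.14 and 0.13. Both were also lost with the LP118 libraries alone, by limma on either FPKM scale and without replicate 2 of either time. That of HEM4 was lost without replicate 1 at 24 h or replicate 3 at 6 h as well.

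Of 12 drug efflux genes and their regulators, 4 were higher, 5 were lower and 3 were not called, near the shares of all tested genes. PDR12, a weak acid exporter gene, averaged 195 ± 26.7 CPM at 24 h and 59.8 ± 7.07 CPM at 6 h. PDR5, the main multidrug exporter, fell by 0.57 and SNQ2 by 0.98. The lower count was 3 without replicate 1 or 2 at 24 h or replicate 3 at 6 h, and by limma on log2(FPKM + 1). Membrane lipid genes stood out through INO1, which had 5755, 5498 and 5910 CPM at 24 h, against 312, 303 and 299 CPM at 6 h. Of 14 phospholipid genes regulated with INO1, 10 were higher, 1 was lower and 3 were not called, with OPI3, a phospholipid methyltransferase, at 1.54 ± 0.09 and ITR1, the inositol transporter, at 1.22 ± 0.07. Fatty acid genes were 2 higher (4 with the LP118 libraries alone), 5 lower and 4 not called of 11, and the elongase genes ELO2 and ELO3 fell by 1.29 and 1.16. Of 10 genes of sterol uptake and anaerobic mannoproteins, 5 were higher, 2 were lower and 3 were not called. DAN1 averaged 80.1 ± 7.30 CPM at 24 h and 338 ± 21.2 CPM at 6 h, while TIR4, of which 20.2% of windows are repeated, averaged 125 ± 8.35 CPM at 24 h and 26.0 ± 1.76 CPM at 6 h.

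Galactose genes were abundant in glucose medium at both times. GAL10 had 9463, 8873 and 9195 CPM at 24 h, against 3712, 3390 and 3367 CPM at 6 h, and GAL1 averaged 6792 ± 359 CPM at 24 h and 2771 ± 123 CPM at 6 h. The permease gene GAL2 rose by 1.94 ± 0.09 and GAL7 by 1.65 ± 0.08. Of 7 tested genes, 6 were higher and 1 was lower. GAL80, the repressor of this regulon, had 6 counts over the 24 h libraries and 9 over the 6 h libraries and was removed by the filter on low counts. Of the markers deleted in BY4742, all 4 had counts in LP118, with 2 lower and 2 not called. LYS2 was 1 of those not called, and its level is not given here, so its counts are not read as expression. HIS3 averaged 587 ± 47.2 CPM at 24 h and 557 ± 50.3 CPM at 6 h and was not called. URA3 averaged 426 ± 22.1 CPM at 24 h and 704 ± 5.31 CPM at 6 h, and LEU2 77.3 ± 5.73 CPM at 24 h and 124 ± 6.73 CPM at 6 h. The calls of both URA3 and LEU2 were lost by limma on log2(FPKM + 0.1), at adjusted p of 0.076 and 0.11.

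The mating type label was checked with cell type genes. MF(ALPHA)1, the alpha factor gene, averaged 1336 ± 179 CPM at 24 h and 1319 ± 120 CPM at 6 h, and STE3, the a-factor receptor of alpha cells, averaged 166 ± 11.1 CPM at 24 h and 184 ± 4.27 CPM at 6 h. The a-factor gene MFA1 was at 4.18 ± 0.732 CPM at 24 h and 1.86 ± 0.255 CPM at 6 h, and MFA2 and ASG7 were at 1.67 to 2.46 CPM on average at both times. The a cell genes STE6 and BAR1 had 39.9 ± 1.78 and 36.4 ± 7.61 CPM at 24 h and 26.4 ± 2.47 and 23.1 ± 4.40 CPM at 6 h. Per length, MF(ALPHA)1 had 2827 ± 292 FPKM at 24 h and 2467 ± 251 FPKM at 6 h, and STE3 had 124 ± 8.21 and 121 ± 2.65 FPKM. The 7 a cell genes ran from 4.02 FPKM in ASG7 to 39.7 FPKM in MFA1 at 24 h, and from 3.62 to 15.6 FPKM in these genes at 6 h. Of 6 alpha cell genes 4 were tested, with 1 higher and 3 not called, and the higher one, the agglutinin gene SAG1, lost its call without replicate 2 or 3 at 24 h or replicate 2 at 6 h (adjusted p = 0.052, 0.050 and 0.057, edgeR). HMLALPHA1 and HMLALPHA2 had 0 counts, with 100% of their windows repeated at the mating type locus. Of 7 a cell genes 5 were called higher, but 1 to 3 were when single libraries were left out, with the exception of replicate 3 at 6 h. Meiosis and sporulation genes were 12 higher, 0 lower and 7 not called of 19 tested, with means of at most 32.2 CPM at 6 h, that of SMK1. The deacetylase gene CDA1, for example, averaged 16.1 ± 1.92 CPM at 24 h and 1.13 ± 0.577 CPM at 6 h. NDT80, the regulator of middle sporulation genes, had 0 counts in LP118. In the pheromone pathway 3 of 11 genes were higher, 4 were lower and 4 were not called, near the 26.6% and 30.5% of all tested genes. The mating type switching gene HO had 30.9, 36.6 and 30.4 CPM at 24 h, against 108, 101 and 108 CPM at 6 h.

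The change over time in LP118 had the direction of the other strains for most genes called in both, but often differed in size. Of genes called over time in LP118 and in LP085-Vc, 2464 changed in the same direction and 433 in opposite directions, and with LP104-17 these were 2296 and 473. The difference between LP118 and LP085-Vc in the 24 h over 6 h change was called for 3687 of 6131 genes (60.1%), 1872 above and 1815 below 0. The difference from LP104-17 was called for 3056 genes (49.8%), 1504 above and 1552 below 0. By limma on log2(FPKM + 1) these splits were 2387 above and 1208 below for LP085-Vc, and 1845 above and 1178 below for LP104-17. The 2 comparisons share the LP118 libraries, so they are not independent of each other. The median absolute log2 change over time was 0.41 in LP118, against 0.745 in LP085-Vc and 0.608 in LP104-17.

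Central carbon genes differed widely between the strains. Counts above or below another strain, here and in the next paragraph, hold only genes whose difference in change was called. Of all 6131 tested genes, 1872 were called above and 1815 below LP085-Vc. Against LP104-17 these were 1504 and 1552. Glycolysis had a median log2 change of -0.59 in LP118, against -4.31 in LP085-Vc and -3.85 in LP104-17. The LP118 change was called above that of LP085-Vc for 16 of 17 genes and above that of LP104-17 for 17 of 17. ENO2, at 2517 ± 353 CPM in LP118 at 24 h, had 57.1 ± 9.33 CPM in LP085-Vc and 55.1 ± 1.99 CPM in LP104-17 at that time, and at 6 h it had 12871 to 14755 CPM in all 3 strains. The glyoxylate and gluconeogenesis list had a median of 1.19 in LP118, against 4.84 and 3.08 in LP085-Vc and LP104-17. The LP118 change was called below that of each for 17 of 19 genes. PCK1, at 53.5 CPM in LP118 at 24 h, had 8924 ± 576 CPM in LP085-Vc and 3015 ± 111 CPM in LP104-17. In oxidative phosphorylation the medians were 0.47 in LP118, 1.98 in LP085-Vc and 2.36 in LP104-17. The LP118 change was called below that of each other strain for 34 of 36 genes. HXT4 fell in the other strains, by 5.53 in LP085-Vc and by 3.73 in LP104-17 on the log2 scale, so that the difference in change was 10.41 ± 0.19 and 8.61 ± 0.18, with edgeR adjusted p of 8.77e-19 and 6.15e-18. HXT3 reached 6864 CPM in LP118 at 24 h, while LP085-Vc had 52.9 ± 1.16 CPM and LP104-17 had 53.9 ± 2.70 CPM.

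Nutrient and growth genes gave other patterns. FIT3 changed over time by 6.22 in LP118, 6.30 in LP085-Vc and 7.03 in LP104-17, and its difference in change was -0.08 ± 0.20 against LP085-Vc, not past the threshold, with an edgeR adjusted p of 0.76. Against LP104-17 it was -0.81 ± 0.21, with an edgeR adjusted p of 0.0029. Sulfate and methionine genes had a median of 1.61 in LP118, against -1.03 in LP085-Vc and 0.38 in LP104-17. The LP118 change was called above that of LP085-Vc for 23 of 26 genes and below it for 1. MET17 had 1137 CPM at 24 h and 169 CPM at 6 h in LP118, while LP085-Vc had 298 ± 16.5 CPM at 24 h and 1992 ± 242 CPM at 6 h. Lysine genes had medians of 0.46 in LP118, -1.35 in LP085-Vc and -1.93 in LP104-17. The LP118 change was called above that of each other strain for 7 of 9 genes and below it for 0. INO1 had 5721 CPM in LP118 at 24 h, while LP085-Vc had 6309 ± 46.2 CPM and LP104-17 had 8502 ± 65.4 CPM. At 6 h it had 305 CPM in LP118. LP085-Vc had 4946 ± 406 CPM and LP104-17 had 4457 ± 196 CPM then. Ribosome biogenesis genes had a median of -0.58 in LP118 and -0.89 in LP085-Vc, but 0.64 in LP104-17. The LP118 change was called below that of LP104-17 for 63 of 74 genes and above it for 0. ERG1 fell by 1.22 in LP118, against 3.75 in LP085-Vc and 3.55 in LP104-17 on the log2 scale, and each difference in change was called (2.53 ± 0.13 and 2.33 ± 0.13).

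**Figure D5:**
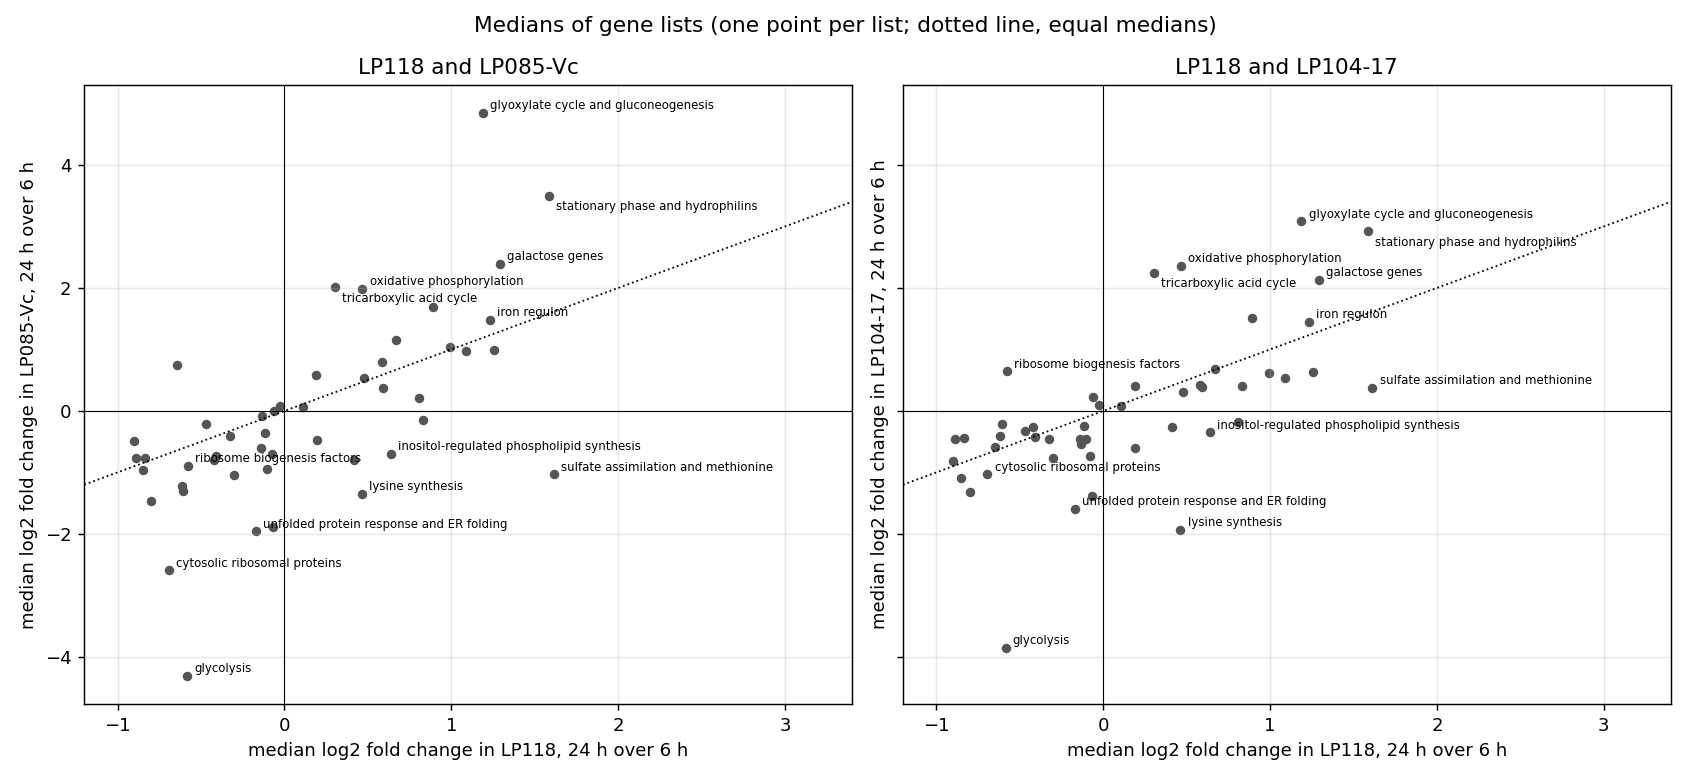
Median log2 fold change over time of 48 gene lists in LP118 (horizontal axis) against that in LP085-Vc (left) and LP104-17 (right), with 1 point per list and a dotted line of equal medians. Glycolysis lies at -0.59 in LP118, against -4.31 and -3.85, and the glyoxylate cycle and gluconeogenesis at 1.19, against 4.84 and 3.08.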

How the data were processed

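RNA-seq was read from total RNA of LP118 at 24 h and 6 h. The submitters' processing notes name Bowtie2 2.2.5 and build R64. The counting tool, annotation and strand setting are not given in the labels. Each library had raw counts for 6600 genes, deposited by the authors without normalization. FPKM was computed by the authors, as the file headers say, and its implied library denominators exceed the table totals by a factor of 1.017 to 1.019 at 24 h and 1.034 to 1.035 at 6 h. Overlapping and near-copy genes could share reads, and repeated windows of 50 bases were counted in the RefSeq R64 genome, which matched 5917 of the 6600 identifiers.

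The counts of all 18 libraries entered 1 edgeR 4.0.16 quasi-likelihood fit (R 4.3.3) with 6 group means, TMM scaling (factors 0.914 to 1.11), filterByExpr (minimum count 10, minimum total 15; 6131 kept, 469 removed) and 12 residual degrees of freedom. Tests were two-sided, with Benjamini-Hochberg adjustment over all tested genes and a threshold of 0.05. Log2 fold changes have a prior count of 0.125 and are given ± SE, and CPM and FPKM as mean ± SD with 3 libraries. This SE was computed back from the test, as the absolute log2 fold change divided by the square root of its F statistic. Variation between libraries, edgeR's BCV, was 11.2%. Counts and their precision cover sampling and spread between libraries only. The edgeR procedure was also run on simulated counts in which few genes changed, as many up as down. In these data 57.1% of tested genes were called, so that run cannot test how the split of calls depends on scaling. Limma 3.58.1 on log2(FPKM + 1) and log2(FPKM + 0.1), DESeq2 1.42.0, other scalings, no filter, LP118 alone, a coding-length correction, a replicate block and leaving out each LP118 library were the alternatives.

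Genes named are the 12 largest rises and falls with a symbol, at least 10 CPM and no overlap between times, the 10 highest FPKM values per time, 4 called members per list, all members of the sterol, heme, efflux, marker and mating type lists, and 5 genes per direction and interaction. Genes outside it are said to be so or illustrate a count. The members, the 48 gene lists and the motifs were chosen with earlier results of these data known. Lists are described by counts and medians, to be read against those of all tested genes.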

Additional observations from a re-analysis of the deposited data

Results flagged for a closer look

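The genes below changed over time in LP118 differently from another strain, by the edgeR test of that difference. Against LP085-Vc, the log2 change in LP118 was above by 10.4 for HXT4, 8.01 for TDH1, 7.92 for TPO2, 7.13 for ANB1, a translation factor gene known from low oxygen, and 7.05 for HXT3. Against LP104-17 it was above by 8.61 for HXT4, 8.12 for TDH1, 6.99 for TPO2, 6.73 for HXT3 and 6.49 for ANB1. HXT4 and TDH1 rose in LP118 and fell in both other strains. TDH1 averaged 6264 CPM at 24 h and 175 CPM at 6 h in LP118, against 966 and 6953 CPM at these times in LP085-Vc and 479 and 3731 CPM in LP104-17. ANB1 was not called in LP118, with 39.6, 27.0 and 28.1 CPM at 24 h and 23.1, 28.2 and 26.8 CPM at 6 h, and is the paralog of HYP2, which had 0 counts in all 6 LP118 libraries.

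Below LP085-Vc, the differences were -7.40 for DPA10, -7.32 for RGI2, -7.12 for PCK1, -7.04 for MLS1 and -6.94 for FBP1, the fructose-1,6-bisphosphatase gene. Below LP104-17 they were -7.23 for RGI2, -6.06 for FBP1, -6.03 for MLS1, -5.81 for NCE103 and -5.64 for DPA10. RGI2, a gene known from respiratory growth, averaged 2.36 CPM at 24 h and 0.723 CPM at 6 h in LP118, against 600 and 1.17 CPM in LP085-Vc and 393 and 0.813 CPM in LP104-17. NCE103, carbonic anhydrase, averaged 170 CPM at 24 h and 741 CPM at 6 h in LP118, against 789 and 61.1 CPM in LP104-17. Its direction thus differed between LP118 and LP104-17.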

How the results depend on the processing

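Across the 15 alternatives no named gene of LP118 changed direction past the threshold, and 30 of 272, called or not, lost a call under at least 1 of them. The counts of higher genes were 1644 with DESeq2, 1638 with RLE scaling, 1928 with upper-quartile scaling, 1637 without a filter, 1789 with the LP118 libraries alone, 1780 with the coding-length trend removed, and 2182 and 2171 with limma on log2(FPKM + 1) and log2(FPKM + 0.1). Lower genes fell to 1212 with limma on log2(FPKM + 1) and 1196 on log2(FPKM + 0.1), where the median of all genes was 0.13 in place of -0.05, and genes below LP085-Vc to 1208 and 1191. Leaving out 1 library gave 1462 to 1693 higher and 1404 to 1795 lower, and replicate 2 at 24 h turned the balance to 1693 higher and 1404 lower. The replicate block gave 1575 higher and 1848 lower. Same-numbered LP118 libraries had correlations of -0.18, -0.03 and -0.15 in their deviations from the group means. No label says what the number pairs, and so few libraries cannot decide it. The list medians of the unfolded protein response, squalene to ergosterol, sterol regulators, sterol esters, P450 partners, drug efflux, fatty acid, alpha cell and pheromone lists changed sign under at least 1 alternative. The filter on low counts removed 469 genes, some of which, such as ATF2, had 0 counts in all 18 libraries.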
